A study of Mus musculus with 14 samples.

Results

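Chemokines are small secreted proteins that steer leukocytes along a concentration gradient by binding receptors with 7 membrane-spanning segments, and fibroblasts release several of them when stimulated by inflammatory cytokines or by microbial products. The group described here holds the CC chemokines Ccl2, Ccl5, Ccl7 and Ccl8, the CXC chemokines Cxcl1, Cxcl5, Cxcl10 and Cxcl12, the cytokine gene Il6, and Ptgs2, which encodes the inducible cyclooxygenase of prostaglandin synthesis. In many cells NF-kB, a transcription factor held in the cytoplasm by inhibitor proteins until a stimulus arrives, induces the inflammatory members, whereas Cxcl12 is known as a chemokine that stromal cells make constitutively. Members were taken as every probe whose platform annotation names 1 of these 10 genes and that had values on 10 or more of the 14 arrays. Of 20355 probes on the array, 9 carried such a name, covering 7 of the 10 genes, and 6 of these 9 probes, covering 4 genes, met the limit. They were 1 probe each for Ccl5, Ccl8 and Cxcl1 and 3 probes for Cxcl12, called A, B and C here. The probes of Ccl7 (8 arrays), Cxcl10 (5 arrays) and Il6 (9 arrays) fell short of the limit and are given as values without a main test, and no probe in the annotation used here carries the names Ccl2, Cxcl5 or Ptgs2. The probe nearest above the limit was Cxcl12 probe B with 11 arrays, with a median log2 ratio of 0.34, and the nearest below was Il6 with 9 arrays, with a median of -0.15.

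Each of the 14 arrays compared RNA of Ptdsr-/- mouse fibroblasts with RNA of wild-type fibroblasts on a spotted cDNA microarray with 2 dyes. Ptdsr is the older name of Jmjd6, a gene once proposed to encode the phosphatidylserine receptor, whose product is a nuclear protein with a JmjC domain. Replicates 1, 3, 4, 7, 8, 9 and 13 had the knockout RNA in Cy5, and replicates 2, 5, 6, 10, 11, 12 and 14 had it in Cy3, 7 arrays each. The design text mentions 2 cultures without saying which array used which, so p-values measured the spread between arrays, part of which may be technical. Age, strain and tissue of origin of the cells are not given in the labels, and neither is the allele's construction. The wild-type RNA acted as 1 control sample, and its own spread between cultures was not measured.

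Values are given as log2 ratios, knockout over wild type, with each array centred on its median, so a negative value means a weaker knockout signal relative to the array's typical probe. This direction is likely and not stated. It rests on codes for extreme ratios, which were positive wherever the knockout was in Cy5 (7 of 7 arrays) and negative wherever it was in Cy3 (7 of 7). Inside the number ranges 1 to 6 and 7 to 12, however, all 18 pairs of arrays with opposite dyes had rank correlations below 0 over all probes, from -0.229 to -0.0182, so the direction is not settled by the ratios themselves. The ratios carry no level, so the data do not say how strongly a gene was expressed, and fewer cells of a type and less RNA per cell cannot be told apart. Between 13165 and 19615 probes had a usable ratio on an array, with the lowest counts on replicates 1 (14302) and 2 (13165), whose ratios also spread most (SD 1.54 and 1.66 over probes, against 0.69 to 1.22 on the other 12 arrays). A Jmjd6 probe had values from -1.74 to 2.92 (median -0.82), was below 0 on 12 of 14 arrays and was not called (adjusted p = 0.895 by limma). The other Jmjd6 probe, measured on 5 arrays, ran from -1.65 to 1.09 and was below 0 on 1 of them. The position of these probes relative to the deletion was not analysed here. Of 12 fibroblast markers, 11 were measured with a median ratio of -0.08, which describes a balance between the genotypes and not the identity of the cells.

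The upstream sequences of the tested members were searched for the motifs listed below, and those with a match are printed. The promoter table used here, from RefSeq on GRCm38.p6, was matched for 3 of the 4 tested genes, Ccl8, Cxcl1 and Cxcl12. The 250 bases before each start were searched on both strands for the NF-kB consensus and for the core of the interferon-stimulated response element (ISRE), TTCNNNGAA, TGANTCA and TATAAA. The lines give the 250 bases upstream of the annotated start on the plus strand, 5′ to 3′, with motif matches in capitals, for Ccl8 at chr11:82114935-82115184 and Cxcl1 at chr5:90890995-90891244.
Ccl8: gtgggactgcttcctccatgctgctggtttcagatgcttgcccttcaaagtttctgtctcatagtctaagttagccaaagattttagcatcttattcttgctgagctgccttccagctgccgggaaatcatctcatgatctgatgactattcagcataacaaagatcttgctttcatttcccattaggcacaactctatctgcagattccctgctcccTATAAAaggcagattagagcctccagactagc
Cxcl1: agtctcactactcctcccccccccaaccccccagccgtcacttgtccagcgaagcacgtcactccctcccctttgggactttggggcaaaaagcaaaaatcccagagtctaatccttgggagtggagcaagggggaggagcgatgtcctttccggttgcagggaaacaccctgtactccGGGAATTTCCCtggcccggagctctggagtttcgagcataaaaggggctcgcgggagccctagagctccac
The capitals of Ccl8 are a TATAAA from 32 to 27 bases before the start, and those of Cxcl1 are 2 overlapping matches to the NF-kB consensus, 1 on each strand, from 71 to 61 bases before the start. Among 32851 mouse promoters of the same length, 12.4% held TATAAA and 7.25% the NF-kB consensus. The Cxcl12 window matched none of the motifs and had a GC content of 64.4%, against 44.8% for Ccl8 and 59.2% for Cxcl1. The ISRE core, TTCNNNGAA and TGANTCA, which 2.98%, 7.02% and 6.75% of promoters held, were in none of the windows. A match is a run of letters and was not tested as a binding site.

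None of the 6 tested probes was called between knockout and wild-type fibroblasts, a comparison that asked which transcripts differ without Ptdsr. Among all 18503 probes tested, 6 were called at an adjusted p below 0.05 (0.0324%), all lower, and they name Mmp13, H2-K1, Ifi27, Lpl, Ifi205 and Lyz2. At an unadjusted p below 0.05, 2 of the 6 member probes, Ccl5 and Ccl8, lay below 0 and none above, against 2.76% of all probes below and 2.3% above. Ccl5, Ccl8, Cxcl1 and Cxcl12 probe C had means below 0, and Cxcl12 probes A and B had means above 0. The members therefore did not share a direction, and averaged per gene they had a median of -0.6 over 4 genes, against 0 over all 9252 genes.

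**Figure D1:**
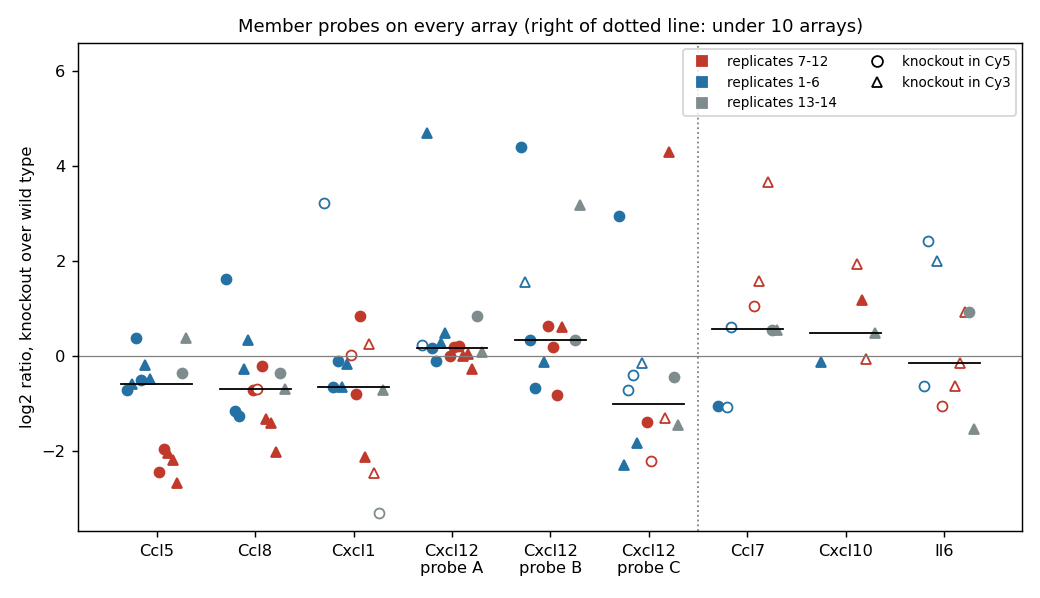
Log2 ratio of knockout over wild type (vertical axis) on every array for the 9 probes, with replicates 7 to 12 in red, 1 to 6 in blue and 13 to 14 in grey, circles for the knockout in Cy5, triangles for the knockout in Cy3, open symbols for ratios of small whole numbers and bars for the median. The 5 red Ccl5 points lie between -2.68 and -1.96, below every other Ccl5 point, while Cxcl12 probe A stays close to 0 apart from replicate 2 at 4.70.

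Ccl5, also known as RANTES, attracts T cells, monocytes and eosinophils. Its log2 ratio was -2.44, -1.96, -2.05, -2.19 and -2.68 on replicates 8, 9, 10, 11 and 12. On replicates 1 to 6 it was -0.72, -0.59, 0.37, -0.50, -0.19 and -0.48, on replicates 13 and 14 it was -0.36 and 0.37, and replicate 7 had no value. Replicates 8 to 12 were the 5 lowest and did not overlap with the other 8 arrays, which lay near 0 and had 2 values above it. On those 5 arrays Ccl5 stood at percentiles 1.05, 3.28, 1.14, 1.68 and 0.93 of the array's own probes, and on the other arrays between 21.1 and 75.7. None of its values was a ratio of small whole numbers, whereas the median tested probe had 15.4% of its values of that kind. Such ratios were counted as a stand-in for dim spots, and their link to intensity was not tested.

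Across all arrays Ccl5 had a fitted mean of -1.02 ± 0.29 (SE, n = 13), a 2.03-fold lower ratio, with a 95% interval from -1.65 to -0.40 before any adjustment. The mean was lower than that of all but 0.216% of probes, and its p ranked 65th among 18503, yet it did not pass over all probes (limma, unadjusted p = 0.00337, adjusted p = 0.895). Both places rest on the likely direction. With the sign of the Cy3 arrays turned, the mean was 0.09 ± 0.29 (SE), its p ranked 14602nd and 64.9% of probes had a lower mean (limma, adjusted p = 0.962). Its arrays with the knockout in Cy5 averaged -0.93 ± 1.06 (SD, n = 6) and the others -1.12 ± 1.17 (SD, n = 7). The dye term was 0.09 ± 0.29 (SE), with an adjusted p of 0.962 (limma, n = 13), and that term called 0 of the 6 member probes, against 1 of 18503 probes (0.0054%). In the likely direction, both orientations held low and near-zero values.

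The low values stood together by replicate number. The ranges 1 to 6 and 7 to 12 are not labelled groups and were chosen with earlier results of these data known. Ccl5 had a mean of -2.26 ± 0.30 (SD, n = 5) on replicates 7 to 12 and -0.35 ± 0.39 (SD, n = 6) on replicates 1 to 6. The fitted difference between the ranges was -1.90 ± 0.30 (SE), with an unadjusted 95% interval from -2.56 to -1.24, and ranked 9th by p among 18224 probes, but its adjusted p was 0.108 (limma). With the Cy3 arrays turned, Ccl5 ran from -2.44 to 2.68 on replicates 7 to 12. On replicates 1 to 6 it then ran from -0.72 to 0.59, a span inside the wider one. The difference was then 0.19 ± 0.64 (SE) and ranked 15946th (limma, adjusted p = 0.878). The lower mean on replicates 7 to 12 is thus present in the likely direction alone. Turning changes the signs of ratios and not their sizes. Every Ccl5 ratio on replicates 7 to 12 was larger in size than any on replicates 1 to 6, which by arithmetic holds in both readings. The share of all probes separated by size in this way is not given here. Of the 6 member probes, Ccl5 alone had values on replicates 7 to 12 that lay entirely below those on replicates 1 to 6, as did 0.916% of all probes, while 0.713% lay entirely above. The range contrast called 1 probe of 18224 (0.00549%), which belongs to S100a4, a calcium-binding protein of the fibroblast marker list, named after its value was seen. Within replicates 7 to 12 alone the fitted Ccl5 mean was -2.25 (limma, adjusted p = 0.0911), within replicates 1 to 6 it was -0.35 (adjusted p = 0.880), and without replicates 7 to 12 it was -0.26 (adjusted p = 0.879). When the ranges entered the model as a fixed block and the mean was taken over arrays, Ccl5 was called at -1.12 (limma, adjusted p = 0.00844), as 1 of 16 called among 18503 probes. With the mean taken over the 3 ranges it was not (-0.87, adjusted p = 0.113). Both fits take the split between the ranges out of the spread. Their p-values therefore measured the spread within ranges, and not whether the ratio was alike on all arrays.

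**Figure D2:**
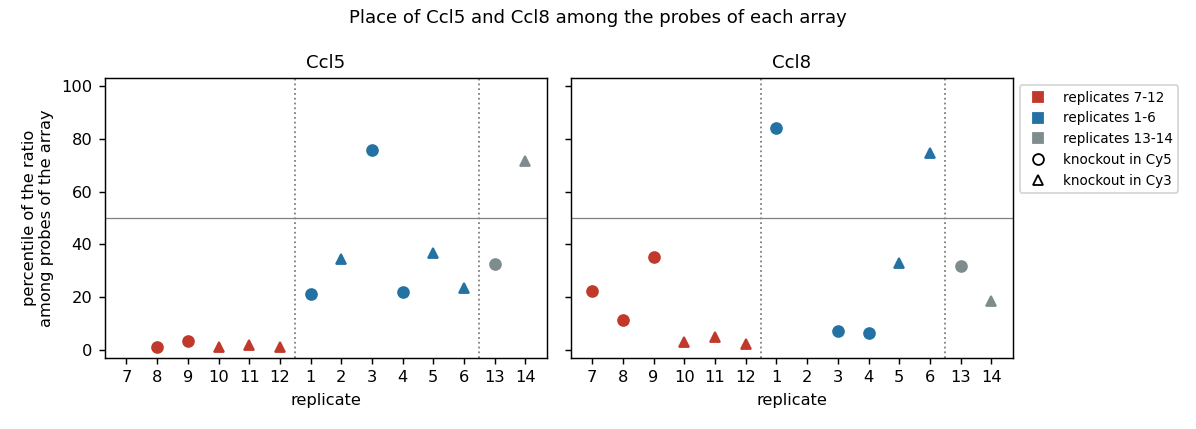
Percentile of the Ccl5 and Ccl8 ratios among all probes of the same array (vertical axis), by replicate number (horizontal axis), with circles for the knockout in Cy5 and triangles for the knockout in Cy3. Ccl5 stands between 0.93 and 3.28 on replicates 8 to 12. Ccl8 reaches 2.07, 3.16 and 4.86 on replicates 12, 10 and 11, all with the knockout in Cy3.

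Ccl8, also called MCP-2, is a CC chemokine that attracts monocytes and, in the mouse, activated T cells through Ccr8. Its ratio was -0.72, -0.69, -0.22, -1.34, -1.42 and -2.02 on replicates 7 to 12. On replicates 1, 3, 4, 5 and 6 it was 1.61, -1.16, -1.27, -0.27 and 0.33, and on replicates 13 and 14 it was -0.37 and -0.70. Replicates 1 and 6 stood above 0 and the other 11 arrays below, with values of the ranges overlapping. The fitted mean was -0.65 ± 0.25 (SE, n = 13), a 1.57-fold lower ratio with an unadjusted 95% interval from -1.18 to -0.13, and it did not pass (limma, unadjusted p = 0.0185, adjusted p = 0.895). The arrays with the knockout in Cy5 averaged -0.40 ± 0.96 (SD, n = 7) and those with it in Cy3 -0.90 ± 0.86 (SD, n = 6), a gap smaller than either spread (dye term 0.25 ± 0.25, limma adjusted p = 0.832). On replicates 7 to 12, however, every Cy3 value (-1.34, -1.42 and -2.02) lay below every Cy5 value (-0.72, -0.69 and -0.22). On replicates 1 to 6 the Cy3 values (-0.27 and 0.33) lay between those in Cy5 (-1.27, -1.16 and 1.61). A dye difference within a range was not tested.

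Ccl8 averaged -1.07 ± 0.65 (SD, n = 6) on replicates 7 to 12 and -0.15 ± 1.18 (SD, n = 5) on replicates 1 to 6. The difference of -0.87 ± 0.54 (SE) did not pass (limma, adjusted p = 0.822). Its fitted mean was -0.82 without replicate 1, the array with its highest value, and -0.54 without replicate 12, the array with its lowest (limma, adjusted p from 0.752 to 0.932 over the 14 arrays left out in turn). One of its 13 values was a ratio of small whole numbers.

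**Figure D3:**
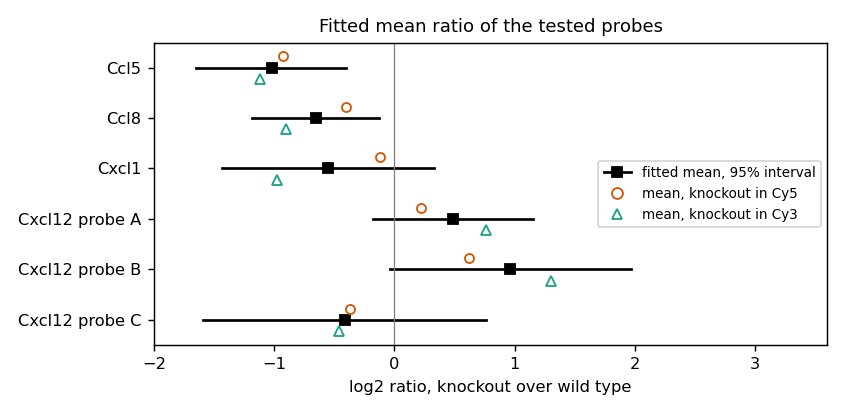
Fitted mean log2 ratio of knockout over wild type (horizontal axis) for the 6 tested probes, with squares and bars for the mean and its unadjusted 95% interval, circles for the mean with the knockout in Cy5 and triangles for the mean with it in Cy3. The intervals of Ccl5 (-1.65 to -0.40) and Ccl8 (-1.18 to -0.13) lie below 0, and those of the other 4 probes include it.

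Cxcl1, a neutrophil attractant that acts through Cxcr2, spread more widely than either. Its ratio was 0.01, -0.80, 0.83, -2.14, 0.26 and -2.46 on replicates 7 to 12. On replicates 1, 3, 4, 5 and 6 it was 3.23, -0.66, -0.10, -0.65 and -0.18, and on replicates 13 and 14 it was -3.32 and -0.72. The highest value came from replicate 1 and the lowest from replicate 13, both with the knockout in Cy5, and 9 of 13 lay below 0. With the knockout in Cy3 the highest was 0.26, and 5 of 6 values lay below 0. Its SD of 1.62 was wider than that of 90.1% of tested probes, and 5 of its 13 values, among them 3.23, -2.46 and -3.32, were ratios of whole numbers up to 10. The fitted mean was -0.55 ± 0.41 (SE, n = 13), with an interval from -1.43 to 0.33 (limma, adjusted p = 0.895). No difference from 0 was detectable at this precision.

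Cxcl12, the ligand of Cxcr4, retains blood-forming cells in marrow stroma, and its 3 probes did not behave alike. Probe A was 0.00, 0.18, 0.21, -0.01, 0.03 and -0.28 on replicates 7 to 12. It was 0.23, 4.70, 0.17, -0.11, 0.28 and 0.49 on replicates 1 to 6, and 0.83 and 0.08 on replicates 13 and 14. All arrays but replicate 2 lay within 1 log2 unit of 0, and replicate 2 was among those with the fewest usable probes. The fitted mean of 0.49 ± 0.31 (SE, n = 14, limma adjusted p = 0.895) became 0.16 without that array, and on replicates 7 to 12 the mean was 0.02 ± 0.18 (SD, n = 6). Probe A thus gave the most even series of ratios of the group once replicate 2 was set aside.

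Probe B ran from -0.83 to 4.40 with a median of 0.34, was above 0 on 8 of 11 arrays, and had a fitted mean of 0.96 ± 0.46 (SE, n = 11, limma adjusted p = 0.895). Its 2 highest values, 4.40 and 3.18, came from replicates 1 and 14, and without replicate 1 the mean was 0.65. Probe C ran from -2.30 to 4.30 with a median of -1.02, was below 0 on 10 of 12 arrays, and had a fitted mean of -0.41 ± 0.54 (SE, n = 12, limma adjusted p = 0.935). Its highest values, 4.30 and 2.94, came from replicates 12 and 1, and without replicate 12 the mean was -0.89. Of its 12 values, 5 were ratios of small whole numbers, and its SD of 2.03 exceeded that of 97.8% of probes. Probes A and C had the same sign on 2 of 12 shared arrays, probes B and C on 3 of 9, and probes A and B on 8 of 11. Which stretch of the transcript each cDNA covers was not analysed here. Averaged over its probes, Cxcl12 stood at 0.29 ± 0.26 (SE, limma adjusted p = 0.904).

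The 3 members under the limit had many ratios of small whole numbers. Il6, the gene of a cytokine that drives the acute-phase response, had -0.64, 2.41, 2.00, -1.06, -0.64, -0.15, 0.93, 0.93 and -1.54 on replicates 3, 4, 6, 7, 10, 11, 12, 13 and 14. Its values fell on both sides of 0, and 7 of 9 were small whole-number ratios. Ccl7, or MCP-3, a monocyte attractant, had -1.05, -1.07, 0.60, 1.06, 1.58, 3.67, 0.54 and 0.54 on replicates 1, 3, 4, 9, 10, 12, 13 and 14, with 5 of 8 values of that kind. Unlike Ccl5 and Ccl8, Ccl7 was above 0 on all 3 of the arrays from replicates 7 to 12 that measured it, but each of these 3 values was a small whole-number ratio. With the limit lowered to 4 arrays, the fitted mean of Ccl7 was 0.97 ± 0.40 (SE, n = 8), above 0 at an unadjusted p of 0.0376 (limma). That of Il6 was 0.27 ± 0.43 (SE, n = 9, limma unadjusted p = 0.555). Neither passed among 20348 probes (limma, adjusted p = 0.906 and 0.956). Cxcl10, an interferon-inducible attractant of T cells through Cxcr3, had -0.13, 1.94, 1.17, -0.07 and 0.49 on replicates 2, 10, 11, 12 and 14, all with the knockout in Cy3, so its dye effect could not be separated, and 2 of the 5 were small whole-number ratios. Coded extremes, which mark a zero in 1 channel, stood at Ccl7 on 2 arrays and at Cxcl10, Il6 and Cxcl12 probe B on 1 each.

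Of 30 other chemokine genes, 19 had a probe and 14 were tested after averaging per gene, and by limma 0 of them were called, against 0.0865% of 9252 genes. At an unadjusted p below 0.05, 2 of the 14 lay below 0 and 0 above, against 2.99% of genes below and 2.38% above. They were Pf4, the platelet chemokine also called Cxcl4, at -1.01 ± 0.26 (SE, n = 13, limma adjusted p = 0.497), and Ccl6, a CC chemokine of mouse myeloid cells, at -0.81 ± 0.26 (SE, n = 14, adjusted p = 0.787). The median of the 14 was 0.00, equal to that of all genes, and 7 lay on each side of 0, from Pf4 to Ccl24 at 0.55. Cxcl9, which like Cxcl10 is interferon-inducible, stood at 0.01 ± 0.46 (SE, n = 11, limma adjusted p = 0.999).

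Several of these chemokines were also lower on replicates 7 to 12, in range means that likewise rest on the likely direction. Pf4 averaged -1.89 on replicates 7 to 12 and -0.23 on replicates 1 to 6, and its difference of -1.66 had an adjusted p of 0.147 in the per-gene range fit (limma). Ccl6 averaged -1.73 on replicates 7 to 12 and -0.05 on replicates 1 to 6 (adjusted p = 0.360). Ccl9, another CC chemokine of mouse myeloid cells, averaged -1.97 on replicates 7 to 12 and 0.55 on replicates 1 to 6 (adjusted p = 0.507), and was chosen after its value was seen, as were Ccl24, Cxcl14 and Cxcl9. Of the 14 genes, 5 were lower on replicates 7 to 12 at an unadjusted p below 0.05 and 0 higher, against 3.56% lower and 2.91% higher among 9174 genes. By limma 0 of the 14 were called, against 5 of all genes (0.0545%). The other members of the 5 were Ccl24, at -0.17 on replicates 7 to 12 and 1.77 on replicates 1 to 6, and Cxcl14, at -0.43 on replicates 7 to 12 and 0.57 on replicates 1 to 6. By their means, 9 of the 14 (64.3%) were lower on replicates 7 to 12, against 52.8% of all genes. The others were higher there, so the pattern did not extend to every chemokine. Among these Cxcl9 averaged 0.73 on replicates 7 to 12 and -1.12 on replicates 1 to 6, without passing (limma, adjusted p = 0.847).

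**Figure D4:**
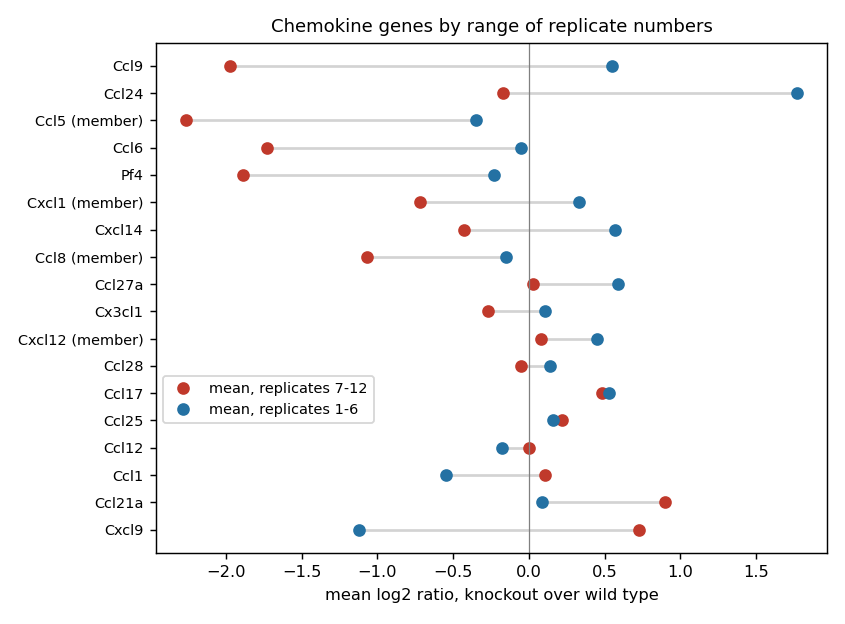
Mean log2 ratio of knockout over wild type (horizontal axis) on replicates 7 to 12 (red) and replicates 1 to 6 (blue) for the 4 tested member genes and the 14 other chemokine genes, ordered by the difference. Ccl5, Ccl6, Pf4 and Ccl9 reach -2.26, -1.73, -1.89 and -1.97 on replicates 7 to 12.

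Macrophage and leukocyte markers were set beside these values because such cells also make Ccl5, Ccl6, Ccl9 and Pf4. Of 14 markers, 8 were tested, with a median ratio of -0.34, 6 of them below 0. Of the 8, 1 was called, against 0.0865% of all genes, and it was the lysozyme gene Lyz2 at -1.62 ± 0.24 (SE, n = 14, limma adjusted p = 0.0105). Cd68, a lysosomal protein of macrophages, stood at -0.52 ± 0.16 (SE, n = 13, adjusted p = 0.743). The list's median was -0.26 on replicates 7 to 12 and -0.29 on replicates 1 to 6, and 5 of 8 markers were lower on replicates 7 to 12, against 52.8% of all genes. Lyz2 averaged -2.03 on replicates 7 to 12 and -1.52 on replicates 1 to 6, and Cd68 averaged -0.83 on replicates 7 to 12 and -0.36 on replicates 1 to 6. Neither passed the range fit (limma, adjusted p = 0.879 and 0.862). The other markers with lower means on replicates 7 to 12, named after their values were seen, were Aif1, Mrc1 and Fcer1g. They averaged -0.36, -0.02 and -0.34 on replicates 7 to 12 and 0.66, 0.91 and -0.20 on replicates 1 to 6. Aif1 alone of the 8 had an unadjusted p below 0.05 in the range fit (limma, adjusted p = 0.674), against 3.56% of genes lower and 2.91% higher. The 3 markers with higher means on replicates 7 to 12, named after their values were seen, were Tyrobp, at -0.17 on replicates 7 to 12 and -1.12 on replicates 1 to 6, Ptprc, at 0.06 on replicates 7 to 12 and -0.39 on replicates 1 to 6, and Fcgr1, at -0.15 on replicates 7 to 12 and -0.22 on replicates 1 to 6. The part of these cells in the chemokine ratios was not tested. Of the 11 fibroblast markers 8 were lower on replicates 7 to 12, against 52.8% of all genes. S100a4 averaged -1.64 on replicates 7 to 12 and 0.81 on replicates 1 to 6. In the per-gene range fit it was the 1 marker called of the 11 (limma, adjusted p = 0.00444), against 0.0545% of 9174 genes. Thy1, a surface glycoprotein chosen after its value was seen, averaged -1.36 on replicates 7 to 12 and 0.18 on replicates 1 to 6 (adjusted p = 0.467). Dcn (decorin) averaged 0.04 on replicates 7 to 12 and -1.32 on replicates 1 to 6 (limma, adjusted p = 0.147 for the range), the opposite order to Ccl5, and over all arrays stood at -0.65 ± 0.20 (SE, n = 14, adjusted p = 0.658). Of 13 endothelial and epithelial markers 11 were tested, with a median of 0.13 and 0 called by limma. Of these, 1 was below 0 and 0 above at an unadjusted p below 0.05, against 2.99% and 2.38% of all genes, namely Krt14, a basal epithelial keratin, at -0.48 ± 0.14 (SE, n = 14, adjusted p = 0.582).

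The receptors and signalling genes around the members had 0 called genes by limma in each list, against 0.0865% of all genes. The 6 tested chemokine receptors had a median of -0.04, ran from Ackr1 at -0.37 to Ccr2 at 0.26, and held 0 at an unadjusted p below 0.05. The 8 genes of Il6 family signalling had a median of -0.02 and stayed between Il6st, the shared receptor chain gp130, at -0.14 and Tyk2 at 0.07, with 0 at an unadjusted p below 0.05. The 8 genes of prostaglandin synthesis and receptors ran from Tbxas1 at -0.35 to Ptges3 at 0.23 with a median of -0.02 and likewise 0 at an unadjusted p below 0.05. They give no value for the unmeasured Ptgs2. The 19 genes of the Tnf, Il1 and NF-kB pathway had a median of -0.19, with 13 below 0. At an unadjusted p below 0.05, 3 of the 19 lay below 0 and 0 above, against 2.99% and 2.38% of all genes. These were Nfkbia, the inhibitor that NF-kB itself induces, at -0.38 ± 0.15 (SE, n = 14, limma adjusted p = 0.877), the receptor gene Tnfrsf1b at -0.28 ± 0.11 (SE, n = 14, adjusted p = 0.894) and Il1b at -0.63 ± 0.27 (SE, n = 13, adjusted p = 0.894). Nfkbia averaged -0.83 on replicates 7 to 12 and -0.03 on replicates 1 to 6, and Il1b averaged -1.29 on replicates 7 to 12 and -0.31 on replicates 1 to 6, without passing the range fit (limma, adjusted p = 0.617 and 0.831). The list did not share this order, since 9 of the 19 genes (47.4%) were lower on replicates 7 to 12, against 52.8% of all genes. Tnf, named after its value was seen, averaged -0.11 on replicates 7 to 12 and -0.77 on replicates 1 to 6 (limma, adjusted p = 0.727).

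The genes whose ratios most resembled Ccl5 over arrays, among 6687 genes sharing at least 12 arrays with it, were Cd44 (Pearson r = 0.92), S100a4 (0.90), Dkk3 (0.90), Dnajb4 (0.89) and Axl (0.89), each over 13 arrays. Each of them was lower on replicates 7 to 12 than on replicates 1 to 6, with means of -0.88 on replicates 7 to 12 and 0.87 on replicates 1 to 6 for Cd44, and of -1.64 on replicates 7 to 12 and 0.81 on replicates 1 to 6 for S100a4. Because the Ccl5 values form 2 clusters, these coefficients largely restate that split, and within replicates 1 to 6 they ran from -0.59 to 0.55 (n = 6). For Ccl8, among 7343 genes, the closest were Mvp (0.96), Ankfy1 (0.92), Psap (0.91), Proser1 (0.91) and Trim42 (0.91), over 12 or 13 arrays, and without replicates 1 and 12, the arrays farthest from the Ccl8 median, the coefficients were 0.73 to 0.87. The arrays share RNA sources and dye orientation, and these coefficients, given as a description, are the highest of all those computed. None of these 10 genes was called on its mean ratio (limma, adjusted p from 0.747 to 0.995).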

How the data were processed

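The values deposited by the authors are log2 ratios, 1 per probe and array, and the base was read from the spacing of the commonest ratios. Total RNA was labelled indirectly with Cy3 or Cy5, per the labels' protocols. Those protocols speak of organs and a pool of control animals, whereas the channel labels name fibroblasts and were followed. The sources used here do not give the scanner, the background correction, the normalization or whether swapped arrays were turned.

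From the deposited ratios, absolute values above 12 (codes for a zero channel) were set to missing, and arrays were centred on their medians. Probes with values on at least 10 arrays, at least 4 per dye orientation, were fitted with limma 3.58.1 in R 4.3.3 (lmFit, eBayes), with an intercept tested against 0, a dye term coded +1 for Cy5 and -1 for Cy3, and Benjamini-Hochberg adjustment over all probes, called at an adjusted p below 0.05. Lists were tested with probes averaged per gene. The range fit used replicates 1 to 12. A deposited ratio was counted as one of small whole numbers if it matched a ratio of integers up to 10 within 0.0011 log2 units of the array's 1:1 step, which 13.4% to 31.4% of values did, against 1.86% to 3.75% on a shifted grid. Probe names came from GEO's platform annotation (14030 probes with 1 symbol, 5 with several, 6320 with none). Ratios hold no spot intensity, and the number of arrays limits the precision.

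The members and lists were chosen with earlier results of these data known. All member probes are named. From each list, up to 4 genes with an unadjusted p below 0.05 are named, with the 5 genes most like Ccl5 and Ccl8, and others are said to be chosen after their values were seen or are a list's extremes. Alternatives covered direction, centring, coded extremes, dye, filters, eBayes settings, number ranges and arrays left out.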

Additional observations from a re-analysis of the deposited data

How the results depend on the processing

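Of 189 member values under alternative settings, 179 kept their sign and their side of the threshold. Turning the arrays with the knockout in Cy3 changed the sign of all 6 probes, to 0.09 for Ccl5, 0.25 for Ccl8, 0.43 for Cxcl1 and -0.27, -0.34 and 0.04 for Cxcl12 probes A, B and C, none of them called. That is the dye term of the fit, and it would be the mean if the swapped arrays had not been turned before deposit, and correlations between arrays of opposite dye, 25 of 49 above 0 and 18 of 18 below 0 within the number ranges, did not settle it. Other sign changes were Cxcl12 probe B at -0.84 with coded extremes kept, Cxcl1 at 0.21 on replicates 1 to 6 alone and Cxcl12 probe C at 0.02 with small whole-number ratios set to missing. Ccl5 passed in 1 alternative, the fixed block of number ranges with the mean over arrays (-1.12), whose p leaves out the spread between ranges. Leaving out 1 array gave -1.15 to -0.87 for Ccl5, -0.82 to -0.54 for Ccl8, and 4 to 8 called probes overall. With the Cy3 arrays turned, the range difference was 0.19 for Ccl5, 0.57 for Ccl8, 0.01 for Cxcl1, 0.97 for Cxcl12 probe A and -2.66 for probe C, none called. With 1 array left out, that of Cxcl12 ran from -1.57 to 0.06 for probe B and from -1.45 to 1.02 for probe C.

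By limma, 6 called probes (935 at an unadjusted p below 0.05) became 1 with the Cy3 arrays turned (1417). They became 11 with values on all 14 arrays, 16 with number ranges as a fixed block and the mean over arrays, and 10 with number range as a random block. They became 0 with robust and trended eBayes (604 at an unadjusted p below 0.05) and with the knockout in Cy5 alone (1031) or Cy3 alone (1219). The same held with replicates 1 to 6 alone (803) and without replicates 7 to 12 (936). The dye term called 1 probe (Nr4a3), 0 with values on all arrays (469), robust and trended eBayes (1395) or the combined random block of number range and dye (782), and 0 to 4 with 1 array left out. The range contrast called 1 probe (1200 at an unadjusted p below 0.05). It called 0 with robust and trended eBayes (1117) or with the Cy3 arrays turned (3739), and 0 to 1 with 1 array left out. For the mean and for the range contrast, more probes had an unadjusted p below 0.05 with the Cy3 arrays turned than in the likely direction. The causes were not tested. The range fit with the Cy3 arrays turned and the fits on number ranges alone, without replicates 7 to 12, with number range as a random block, with the mean over arrays and without small whole-number ratios were chosen after seeing the data. Each ratio is already a difference between the genotypes within an array. No paired analysis was possible because, beyond that, the replicate numbers of the single group are not repeated.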
